A study of Homo sapiens with 2 samples.

Results

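The genes described here encode albumin, alpha-fetoprotein and other carriers and protease inhibitors that hepatocytes secrete into plasma. The list was written by hand from known function, with earlier results of these data known. It has 10 genes, ALB, AFP, TTR, TF, RBP4, AHSG, SERPINA1, SERPINA3, A1CF and AMBP, which were looked up by their symbols in the deposited values. Of these, 9 were among the 16424 listed genes. AHSG, the gene of fetuin-A, was not among them and was not analysed here. A1CF differs from the name of the list, since its product is an RNA-binding protein of the cell and not a plasma carrier.

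Cap analysis of gene expression (CAGE) was performed in PLC/PRF/5, a line of human hepatoma cells that the study chose to stand for poorly differentiated hepatocellular carcinoma. The method reads the first bases of capped RNAs, so that a tag marks where a transcript begins. The study compared 1 library of non-treated cells (0 µg/ml) with 1 library of cells given 3 µg/ml of M2BPGi, a glycosylated form of Mac-2 binding protein, and both were collected after 6 h. The comparison asks which transcripts differ when this glycoprotein is added to the medium.

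Albumin is the most abundant protein of adult plasma, and AFP is its relative in foetal plasma. AFP is silenced after birth, returns in many hepatocellular carcinomas and is measured in serum as a tumour marker. Most plasma carriers are made by hepatocytes under shared liver-enriched transcription factors, and lower levels of these genes are known from less differentiated liver tumours.

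Values are CPM, the tags of a gene scaled to the size of its library. Each transcript gives tags from its 5′ end only, so the CPM of different genes can be set side by side without a correction for transcript length. The totals derived from the CPM were 24040207 tags for the non-treated and 24862942 tags for the M2BPGi-treated library, so that 1 tag was worth 0.0416 and 0.0402 CPM. Log2 ratios are those of M2BPGi-treated over non-treated cells after adding 1 CPM to both values, which understates the ratio of low genes. They were computed for each gene, and the comparison with all genes used the 13724 genes whose mean CPM was 1 or more. Of the 9 listed members, 8 passed this filter, and SERPINA3 did not. With 1 library per condition, no difference has a replicate check, and no p-value is given. Intervals are 95% Clopper-Pearson intervals of the log2 ratio of the tags, without the added 1 CPM, and they cover counting error only.

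The member genes fell into groups of very different level. AFP, SERPINA1 and AMBP were each at 455 CPM or more in both libraries, and together they took 94.7% of the summed CPM of the members in non-treated and 93.3% in M2BPGi-treated cells. A1CF was next, near 90 CPM. ALB, TF, RBP4, TTR and SERPINA3 were all below 10 CPM. ALB, the gene that leads the list by name, ranked 9901 among the listed genes in non-treated cells, while AFP ranked 177. The label of the list therefore holds for the oncofetal marker and for the inhibitors SERPINA1 and AMBP, and much less for albumin and the classical carriers.

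**Figure D1:**
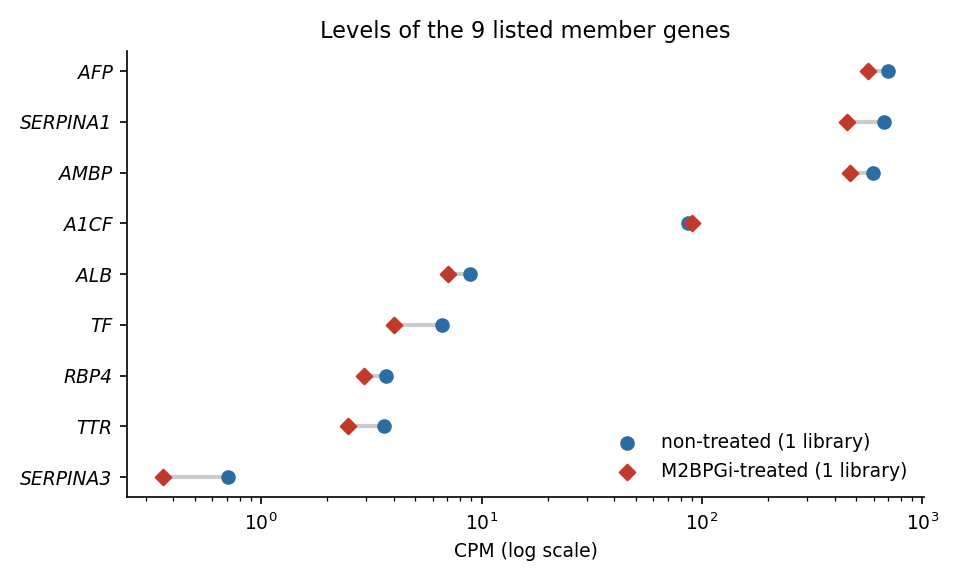
CPM of the 9 listed member genes on a log scale, with a circle for the non-treated library and a diamond for the M2BPGi-treated library. AFP, SERPINA1 and AMBP lie between 455 and 695 CPM, and the diamond lies left of the circle for every gene shown except A1CF.

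The members were mostly lower in M2BPGi-treated cells. Of the 9 listed members, 8 had a log2 ratio below 0, namely all secreted ones, and A1CF was the exception. Of the 8 members that passed the filter, 7 were below 0, against 57% of all tested genes. The direction was the same for each of the 9 genes under all 6 alternative pseudocounts and scalings. A pseudocount cannot change a direction, so only the scalings bear on it. For 6 of the 9 genes the counting interval lay wholly below 0, and for RBP4, SERPINA3 and A1CF it included 0. The share of all tested genes whose interval lay below or above 0 is not given here. The counts of intervals, for the members and for the other lists, therefore describe these genes only and are not set against all tested genes. With the libraries set to a median log2 ratio of 0, and likewise with trimmed mean of M values (TMM) scaling, which were added for these intervals after the data were seen, 4 of the 9 intervals lay below 0, since those of ALB and TTR then included 0, and that of A1CF lay above 0. The differences were small. Among the 8 members that passed the filter, 1 was at least 1.5-fold lower, TF, and 0 were at least 1.5-fold higher, against 4.04% and 1.6% of all tested genes. TF was close to this limit of -0.58 with a log2 ratio of -0.60, and SERPINA1 was just short of it with -0.56. The count of 1 was 0 after the libraries were set to a median log2 ratio of 0, with TMM scaling, with a pseudocount of 5 CPM or when a mean CPM of 10 was required. At 2-fold, 0 members were lower and 0 higher, against 0.43% and 0.24%. With a milder limit, a log2 ratio of -0.32 or below, 4 of the 8 members were lower, TF, SERPINA1, TTR and AMBP, against 18.4% of all tested genes. At the matching limit of 0.32 or above 0 were higher, against 9.04%. This milder limit is used for the other lists as well. The median log2 ratio of the 8 members was -0.32, and that of all tested genes was -0.05, with quartiles of -0.26 and 0.14.

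The scaling of the libraries bears on these shares. As deposited, 555 genes were at least 1.5-fold lower and 219 higher, so 28.3% of these genes were higher. Set to a median log2 ratio of 0, the libraries gave 435 and 304, or 41.1% higher, and with TMM scaling 441 and 292, or 39.8% higher. At the milder limit, 3 of the 8 members were lower under both of these scalings, against 14.1% and 14.4% of all tested genes. For the other lists, the counts at the milder limit and at 1.5-fold are given for the deposited scaling only.

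**Figure D2:**
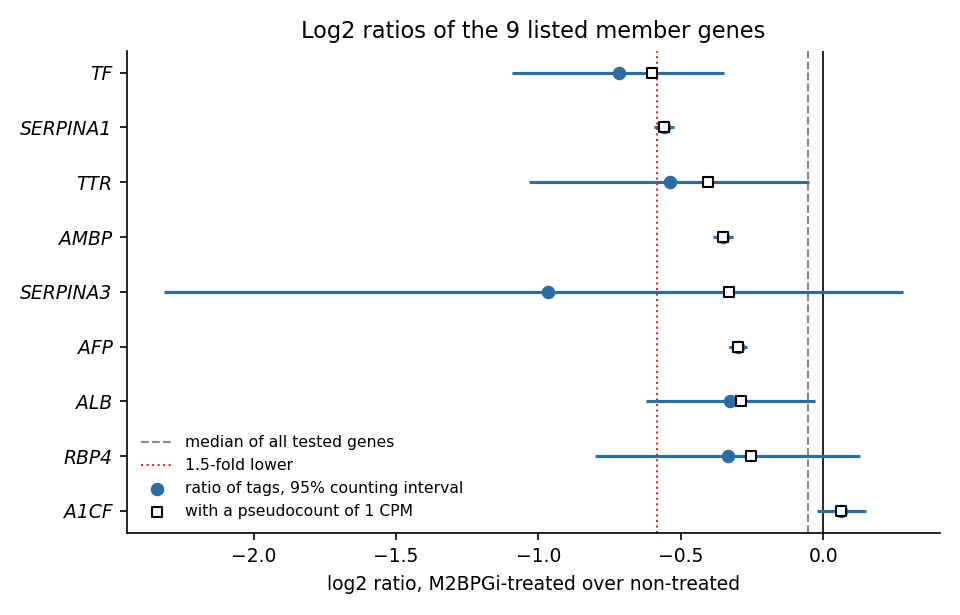
Log2 ratios of M2BPGi-treated over non-treated cells for the 9 listed member genes, 1 library each. Filled circles give the ratio of tags with its 95% counting interval, open squares the ratio with a pseudocount of 1 CPM, and the vertical lines mark 0, the median of all tested genes (-0.05) and 1.5-fold lower (-0.58). The intervals of AFP, SERPINA1 and AMBP are narrow and lie left of 0, and that of SERPINA3 spans from -2.31 to 0.28.

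AFP (ENSG00000081051) was the most abundant member. It had 695 CPM in the non-treated and 566 CPM in the M2BPGi-treated library, from 16717 and 14063 tags. The log2 ratio was -0.30 (interval -0.33 to -0.27), which is 18.7% fewer CPM, and 20.6% of all tested genes had a lower ratio. ALB (ENSG00000163631), its neighbour and relative on chromosome 4, had 8.82 CPM in the non-treated and 7.04 CPM in the M2BPGi-treated library, from 212 and 175 tags. The log2 ratio was -0.29 (interval -0.62 to -0.03). The ratio of AFP to ALB in the same library does not depend on the scaling. It was 78.8 in non-treated and 80.3 in M2BPGi-treated cells, and the log2 ratios of tags, without the added 1 CPM, differed by 0.03 (exact conditional interval -0.27 to 0.33), so no shift between the foetal and the adult gene was detectable at this depth.

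The windows before the starts of ALB and AFP are shown because both genes, which differ so much in level, had similar log2 ratios. The sequences are from RefSeq on GRCh38.p14 and run 5′ to 3′ on the plus strand, while the deposited values were made on hg19 per the submitters' processing notes. The stretch for ALB, chr4:73404037-73404238, holds bases 250 to 49 before the annotated start, and that for AFP, chr4:73435971-73436162, holds bases 250 to 59 before it. Both end where an exon annotated in GENCODE v29 begins. Capitals mark the HNF1 half-site GTTAAT and the CEBP motif TTGCNNAA, each searched on both strands.
ALB: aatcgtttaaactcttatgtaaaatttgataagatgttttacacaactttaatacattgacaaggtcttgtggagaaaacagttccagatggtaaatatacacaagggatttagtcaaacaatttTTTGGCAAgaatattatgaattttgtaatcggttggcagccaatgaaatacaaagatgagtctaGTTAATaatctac
AFP: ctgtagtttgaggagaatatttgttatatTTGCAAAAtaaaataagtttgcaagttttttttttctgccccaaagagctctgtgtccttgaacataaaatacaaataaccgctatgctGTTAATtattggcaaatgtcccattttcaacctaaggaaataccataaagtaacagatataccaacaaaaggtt

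The HNF1 half-site began 61 bases before the start of ALB and 132 bases before that of AFP. It was in 3 of the 12 windows of 250 bases that 8 of the listed members have, those of ALB, AFP and the downstream start of SERPINA1, and in 6.26% of 34788 windows of all genes. The CEBP motif was in 4 of the 12 windows, of ALB, AFP, TF and RBP4, and in 9.05% of all windows. The TATA box letters TATAAA, searched on the strand of the gene, were in 4 windows, of AFP, A1CF and RBP4 (2 windows), and in 6.84% of all windows. In AFP they began 29 bases before the start, outside the printed stretch. In RBP4 they began 31 bases before a start and 225 bases before another, and in A1CF 205 bases before the start. The search took no account of position. The HNF4 letters CAAAGTCC and the FOXA letters TGTTTAC, on both strands, were in 0 of the 12 windows and in 1.01% and 2.98% of all windows. No matches of different motifs overlapped in the printed stretches. A match of letters is not a bound site. TTR had no window. The deposited values are summed per gene, so which start the tags came from was not analysed here.

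SERPINA1 (ENSG00000197249) encodes alpha-1-antitrypsin, the main plasma inhibitor of neutrophil elastase. It had 671 CPM in the non-treated and 455 CPM in the M2BPGi-treated library, from 16125 and 11317 tags. The log2 ratio was -0.56 (interval -0.59 to -0.52), or 32.1% fewer CPM, and 4.67% of all tested genes had a lower ratio. SERPINA1 accounted for the largest loss of CPM among the members and moved from rank 184 to rank 325 of the listed genes. RefSeq gives SERPINA1 a pair of starts. The HNF1 half-site began 76 bases before the downstream one, in a stretch that lies in an exon of longer transcripts in GENCODE v29. The 30 bases around it are shown for comparison with ALB and AFP, from the minus strand at chr14:94388661-94388690, with the half-site in capitals.
SERPINA1: ggggtgaccttgGTTAATattcaccagcag

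SERPINA3 (ENSG00000196136) encodes alpha-1-antichymotrypsin, an acute-phase inhibitor of cathepsin G. It had 0.71 CPM in the non-treated and 0.36 CPM in the M2BPGi-treated library, which were 17 and 9 tags. The interval of the tag ratio was -2.31 to 0.28, so a difference was not detectable at this depth. AMBP (ENSG00000106927) encodes a precursor that is cleaved into alpha-1-microglobulin, which binds haem, and bikunin, a protease inhibitor. It had 596 CPM in the non-treated and 467 CPM in the M2BPGi-treated library, from 14339 and 11622 tags. The log2 ratio was -0.35 (interval -0.39 to -0.32), or 21.6% fewer CPM.

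The abundant members did not differ between the libraries by the same amount. On the log2 ratios of tags without the added 1 CPM, which all comparisons between a pair of members use, SERPINA1 was lower than AFP by a difference of -0.26 (exact conditional interval -0.31 to -0.21) and lower than AMBP by -0.21 (-0.26 to -0.16). AMBP and AFP differed by -0.05 (-0.10 to -0.01). These differences do not depend on the scaling of the libraries, and their intervals cover counting error only. In non-treated cells SERPINA1 had 0.965 times the CPM of AFP, and in M2BPGi-treated cells 0.805 times. The order of the 3 genes also differed, with AMBP above SERPINA1 in M2BPGi-treated cells.

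AMBP and AFP had a lower place among genes of similar level than among all tested genes, and SERPINA1 had about the same place. The 531 genes whose mean CPM was 300 or more, a limit chosen after the values were seen, had a median log2 ratio of 0.16, and 29.9% of them were below 0. The 4260 tested genes with a mean CPM below 10 had a median of -0.11, and 63.7% were below 0. Of the 531 abundant genes, 25 had a lower ratio than SERPINA1, 60 a lower one than AMBP and 79 a lower one than AFP, which are 4.71%, 11.3% and 14.9%. Among all tested genes these shares were 4.67%, 15.9% and 20.6%. For ALB, TF, TTR and RBP4, which belong to the genes below 10 CPM, a log2 ratio below 0 was thus common among genes of their level. In that class 24.8% were lower by the milder limit.

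**Figure D3:**
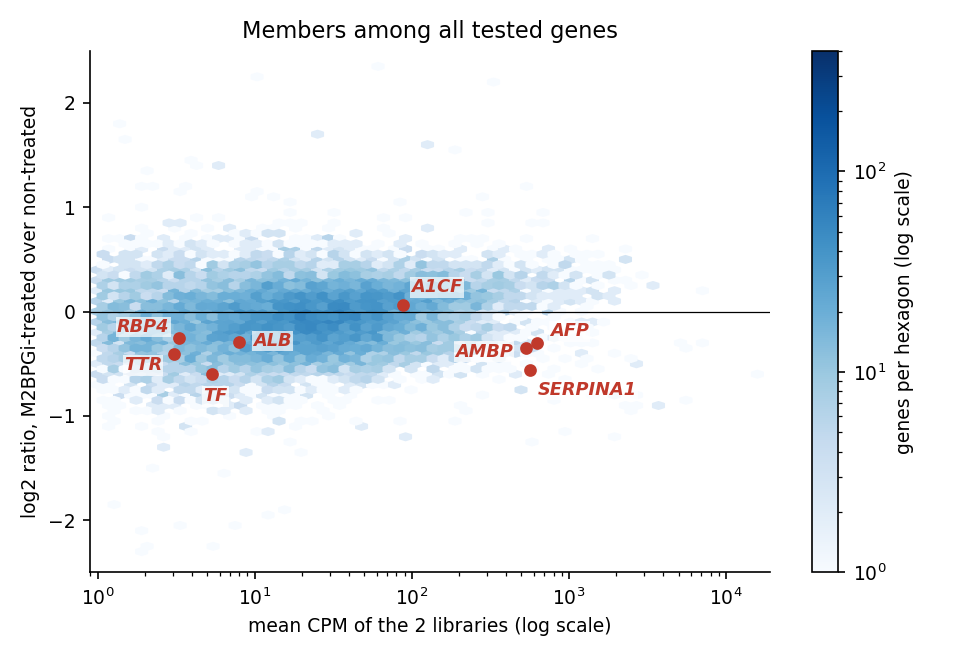
Log2 ratio of M2BPGi-treated over non-treated cells against the mean CPM of the libraries (log scale), with the number of genes per hexagon in blue for the 13724 tested genes and the 8 tested members in red. AFP, AMBP and SERPINA1 lie below most genes of their level, A1CF lies near 0, and 16 genes with a log2 ratio beyond 2.5 in either direction are not drawn.

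TF (ENSG00000091513) encodes transferrin, which carries iron in plasma. It had 6.61 CPM in the non-treated and 4.02 CPM in the M2BPGi-treated library, from 159 and 100 tags. The log2 ratio was -0.60, and the tag ratio had an interval of -1.09 to -0.35. TF shares near-identical sequence with INHCAP, an overlapping gene that is listed as well, so the assignment of its tags is uncertain. SERPINA3 shares sequence with 1 gene that is not listed, and no such sequence was found for the other listed members. TTR (ENSG00000118271) encodes transthyretin, which carries thyroxine and, bound to RBP4, retinol. It had 3.62 CPM in the non-treated and 2.49 CPM in the M2BPGi-treated library, with a log2 ratio of -0.40 (interval -1.03 to -0.05). RBP4 (ENSG00000138207), the plasma carrier of retinol, had 3.70 CPM in the non-treated and 2.94 CPM in the M2BPGi-treated library. Its log2 ratio was -0.25, and its interval of -0.80 to 0.13 included 0. TTR and RBP4, whose products travel in plasma as a complex, had similar levels in both libraries, and their log2 ratios of tags, without the added 1 CPM, differed by -0.20 (exact conditional interval -0.89 to 0.48).

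A1CF (ENSG00000148584) encodes the APOBEC1 complementation factor, which binds RNA and takes part in the editing of the apolipoprotein B mRNA. It had 86.1 CPM in the non-treated and 90.0 CPM in the M2BPGi-treated library, from 2069 and 2237 tags. The log2 ratio was 0.06, and the interval of -0.02 to 0.15 included 0. On the ratios of tags, A1CF differed from AFP by a log2 difference of 0.36 (exact conditional interval 0.27 to 0.45) and from SERPINA1 by 0.62 (0.53 to 0.72). The intracellular member of the list was thus not lower as AFP and SERPINA1 were, and it was not set against the other secreted members in this way. Among its editing partners 5 of 7 genes were listed, and 4 of these passed the filter, with a median log2 ratio of 0.00. HNRNPAB was the most abundant, with 464 CPM in the non-treated and 502 CPM in the M2BPGi-treated library. RBM47, another cofactor of the editing enzyme, had 29.2 and 29.3 CPM, and SYNCRIP, which has a near-identical copy among the listed genes, had 266 and 265 CPM. APOB, the editing target, was lower, with 15.6 and 11.1 CPM and a log2 ratio of -0.46.

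Summed over the 9 listed members, the CPM were 2072 in non-treated and 1595 in M2BPGi-treated cells. The log2 ratio of the sum was -0.38 (interval -0.40 to -0.36), and 23.0% of the CPM were lost. This sum took 0.220% of the CPM of all listed genes in non-treated and 0.169% in M2BPGi-treated cells. Without AFP the log2 ratio was -0.42. Fewer cells that express these genes and fewer transcripts per cell cannot be told apart in these libraries.

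Other plasma carriers mostly had a log2 ratio below 0 as well. Of 20 genes 9 were listed, and all 9 passed the filter. Of these, 8 were below 0, against 57% of all tested genes, with a median log2 ratio of -0.34. The intervals of 6 of the 9 lay below 0, that of 1 above it, and those of SELENOP and SHBG included 0. By the milder limit 5 were lower and 1 was higher, against 18.4% and 9.04% of all tested genes, and at 1.5-fold 2 were lower, against 4.04%. The lowest were CP, the copper carrier ceruloplasmin, with 22.8 and 14.0 CPM in non-treated and M2BPGi-treated cells (log2 ratio -0.67), and SERPINA6, the carrier of cortisol, with 179.7 and 115 CPM (-0.64). CP has a near-identical copy in a pseudogene that is not among the listed genes. The exception was A1BG, a plasma glycoprotein, with 36.3 and 45.9 CPM (0.33), which overlaps an antisense gene. SELENOP, the carrier of selenium and the most abundant of these genes, had 209 and 207 CPM (-0.01), and it overlaps other genes. With a median log2 ratio of 0 or TMM scaling 7 of the 9 were below 0, against 50% and 50.7% of all tested genes.

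The other plasma protease inhibitors showed the same direction. Of 18 genes 8 were listed and 6 passed the filter, and all 6 had a log2 ratio below 0, 3 of them past the milder limit and 0 at least 1.5-fold lower, with a median of -0.32. The intervals of 4 of the 6 lay below 0, and those of SERPIND1 and ITIH2 included 0. SERPING1, the inhibitor of complement C1, was the most abundant, with 543 CPM in the non-treated and 443 CPM in the M2BPGi-treated library (log2 ratio -0.29). A2M, the broad inhibitor alpha-2-macroglobulin, had 175 and 137 CPM (-0.36), and it has a near-identical relative and an antisense gene. SERPINF2, the inhibitor of plasmin, had 11.7 and 8.97 CPM (-0.35). Over both lists together, 14 of 15 tested genes had a log2 ratio below 0, against 57% of all tested genes, and 8 were past the milder limit, against 18.4%. The intervals of 10 of the 15 lay below 0 and those of 4 included it.

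Receptors and transport partners of the carriers had a median log2 ratio of -0.25. Of 15 genes 10 were listed, and 8 of these were below 0, against 57% of all tested genes. The intervals of these 8 lay below 0, or of 7 with a median log2 ratio of 0 or TMM scaling, and those of the remaining 2 included 0. By the milder limit 3 were lower and 0 higher, against 18.4% and 9.04%, and 1 was at least 1.5-fold lower, against 4.04%. TFRC, the transferrin receptor, was the lowest and the most abundant, with 515 CPM in the non-treated and 338 CPM in the M2BPGi-treated library (log2 ratio -0.60, interval -0.65 to -0.57). The log2 ratio of its ligand TF was also below 0, but from few tags of uncertain assignment. TFRC and TF were not set against each other. INSR is the receptor of insulin and not of a carrier, but it is on this list and among those lower by the milder limit. It had 25.5 and 17.5 CPM (-0.52). STRA6, which takes up retinol from RBP4, had 17.8 and 17.8 CPM (0.00). MCFD2, a cofactor of the cargo receptor that carries secreted glycoproteins out of the endoplasmic reticulum, had 209.8 and 185 CPM (-0.18). That receptor, LMAN1, is named after its value was seen. It had 232 and 164 CPM (-0.49, interval -0.55 to -0.44). STRA6 and MCFD2 each share sequence with other genes, so their tags are uncertain.

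**Figure D4:**
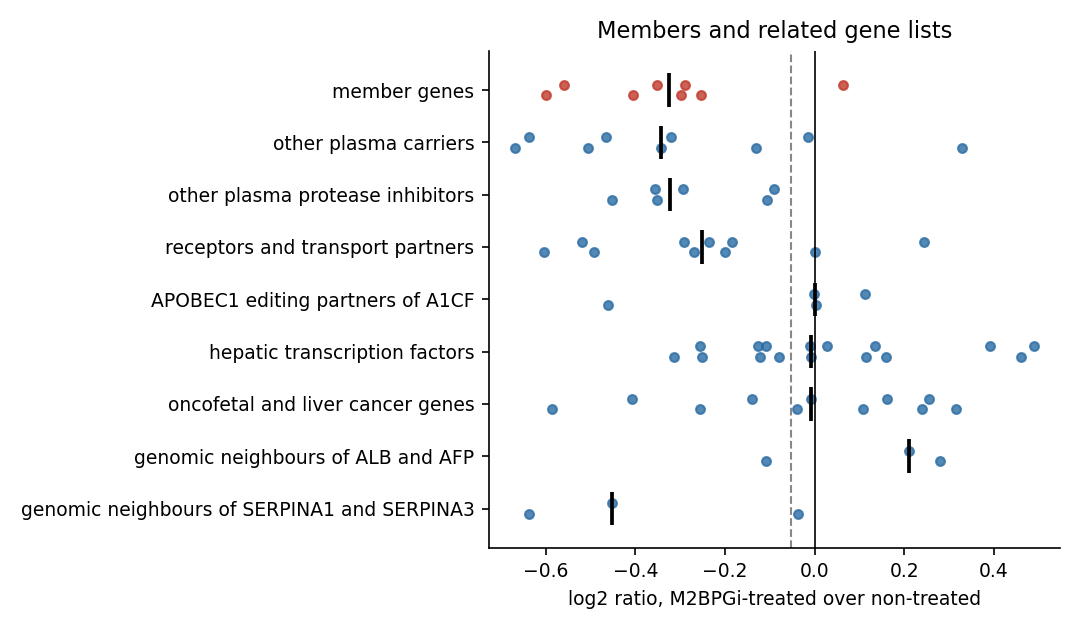
Log2 ratios of M2BPGi-treated over non-treated cells for the tested members (red) and the tested genes of related lists (blue), 1 library per condition. Each point is a gene, black bars are list medians, and the dashed line is the median of all tested genes (-0.05). The medians of members, carriers and inhibitors lie between -0.34 and -0.32, while that of the hepatic transcription factors is -0.01.

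The hepatic transcription factors divided about as all tested genes did. Of 19 genes 16 were listed and passed the filter, and 9 of these had a log2 ratio below 0, where 57% of all tested genes did, with a median of -0.01. With a median log2 ratio of 0 or TMM scaling 7 of the 16 were below 0, against 50% and 50.7% of all tested genes. The intervals of 4 lay below 0, those of 5 above it, and those of 7 included it. By the milder limit 0 were lower and 3 were higher, against 18.4% and 9.04% of all tested genes. FOXA2 had 12.8 CPM in the non-treated and 18.4 CPM in the M2BPGi-treated library (log2 ratio 0.49, interval 0.31 to 0.73). CEBPB, the most abundant by the mean of the libraries, had 113 and 155 CPM (0.46, interval 0.39 to 0.54). At the other end, ONECUT2 had 14.4 and 11.3 CPM (-0.31) and HNF4G 30.7 and 25.5 CPM (-0.26).

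ZHX2, a known repressor that keeps AFP silent in the adult liver, had 11.7 CPM in the non-treated and 10.3 CPM in the M2BPGi-treated library (-0.16), and its interval of -0.42 to 0.08 included 0. ZFHX3 and ZBTB20, other known repressors of AFP, are named after their values were seen. ZFHX3 had 7.32 and 5.31 CPM (-0.40, interval -0.80 to -0.13), and ZBTB20 had 2.79 and 2.01 CPM (-0.33, interval -1.03 to 0.08, which includes 0). Each of them shares sequence with another gene, so their tags are uncertain. No direction is read for the repressors as a group.

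The other oncofetal and liver cancer genes were divided in direction, near the 57% below 0 of all tested genes. Of 13 genes 12 were listed and 11 passed the filter, 6 of them below 0 and 5 above, with a median log2 ratio of -0.01. With the libraries set to a median of 0 or TMM scaling 4 of the 11 were below 0, against 50% and 50.7% of all tested genes. The intervals of 2 lay below 0, those of 4 above it, and those of 5 included it. H19, the most abundant, had 281 CPM in the non-treated and 349.9 CPM in the M2BPGi-treated library (log2 ratio 0.31, interval 0.27 to 0.36). AKR1B10 had 12.4 and 15.0 CPM (0.26). Near-identical copies of it exist elsewhere. GPC3, another serum marker of hepatocellular carcinoma, had 62.5 and 52.2 CPM (-0.26, interval -0.37 to -0.15), close to AFP. SALL4 had 18.4 and 12.0 CPM (-0.59). By the milder limit 2 were lower and 0 were higher, against 18.4% and 9.04%, and at 1.5-fold 1 was lower, against 4.04%.

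Few genomic neighbours of ALB and AFP were listed. Of 5 neighbours 3 were found, with a median log2 ratio of 0.21. By the milder limit 0 were lower and 0 higher, against 18.4% and 9.04% of all tested genes. As deposited, the interval of 1 lay below 0 and those of 2 above it. With a median log2 ratio of 0 or TMM scaling 0 lay below 0 and 2 above it. COX18 had 18.8 CPM in the non-treated and 23.1 CPM in the M2BPGi-treated library (0.28), RASSF6 had 12.7 and 14.9 CPM (0.21), and ANKRD17, the most abundant, had 67.4 and 62.5 CPM (-0.11). In the serpin cluster on chromosome 14, 3 of 11 neighbours of SERPINA1 and SERPINA3 were listed. All 3 were below 0, against 57% of all tested genes, and 2 with the scaling to a median of 0, against 50%. The intervals of 2 lay below 0, and the median log2 ratio was -0.45. By the milder limit 2 were lower, against 18.4% of all tested genes, and 1 was at least 1.5-fold lower, against 4.04%. The 3 neighbours include SERPINA6 and SERPINA10, which the lists of carriers and inhibitors hold as well. The most abundant was SERPINA6, whose log2 ratio of -0.64 was near that of SERPINA1. PPP4R4, named after its value was seen as the neighbour that is not a serpin, had 2.83 and 2.73 CPM (-0.04).

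Across all tested genes the log2 ratio was lower for genes with longer transcripts. Of the 13724 genes, 96.7% had a transcript in GENCODE v29 under the same identifier, and the longest one was used. Divided into 4 classes of like size, the genes with the shortest transcripts, up to 1944 nt, showed a median ratio of 0.03 on the log2 scale, and those with the longest, from 5057 nt, of -0.12. AMBP, TTR and RBP4 were in the class of short transcripts, ALB and AFP in the next, SERPINA1 in the one from 3263 to 5056 nt, and TF and A1CF in the longest. The part of transcript length in the members' ratios was not tested.

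The markers of cell types give the setting of these values. Of 14 markers of mature hepatocytes 4 were listed, with summed levels of 276 CPM in the non-treated and 323 CPM in the M2BPGi-treated library. ASS1, an enzyme of the urea cycle with near-identical pseudogenes, was the most abundant, with 255 and 307 CPM (log2 ratio 0.27). The other 3 summed to 21.1 and 16.3 CPM, and they are named after their values were seen. PCK1, an enzyme of gluconeogenesis, had 8.82 and 5.43 CPM (-0.61, interval -1.02 to -0.38). CPS1, which opens the urea cycle and shares sequence with other genes, had 11.5 and 10.1 CPM (-0.17), and G6PC, the glucose-6-phosphatase, had 0.83 and 0.76 CPM (-0.06). The intervals of CPS1 and G6PC included 0. The remaining 10 were not among the listed genes and were not analysed here. Of these 4 genes 3 passed the filter, with a median log2 ratio of -0.17. Of 7 cholangiocyte markers 6 were listed, with summed levels of 1269 and 957 CPM and a median log2 ratio of -0.25. All 6 had a log2 ratio below 0, against 57% of all tested genes. The intervals of 3 of the 6, SOX9, KRT7 and MUC1, included 0. SPP1, which hepatoma cells also express, was the most abundant, with 1071 and 775 CPM, and the other 5 summed to 198 and 182 CPM. The labelled hepatoma line thus had high AFP, SERPINA1 and AMBP beside SPP1, and low ALB.

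Few markers of other liver cells were among the listed genes. The 2 listed of 9 stellate cell and fibroblast markers summed to 5.20 CPM in the non-treated and 4.18 CPM in the M2BPGi-treated library, with COL3A1 the most abundant. The 3 listed of 8 Kupffer cell and macrophage markers summed to 53.2 and 49.7 CPM. LYZ was the most abundant of them, with 32.1 and 29.2 CPM. CD68, which is named after its value was seen and shares sequence with another gene, had 21.2 and 20.5 CPM. Both were above ALB in either library. CSF1R was at 0 in both libraries, where 3 tags would be 0.125 and 0.121 CPM. Of 7 lymphocyte markers 1 was listed, PTPRC, at 0 in both libraries. The 7 markers of liver endothelial cells were not among the listed genes and were not analysed here. The part of other cell types in the members' ratios was not tested.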

How the data were processed

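CAGE tags of PLC/PRF/5 cells were measured in 1 non-treated and 1 M2BPGi-treated library. Before mapping with BWA, the authors removed tags of ribosomal RNA and those containing unread bases. Start positions were then grouped with CAGEr. The deposited values are CPM for each gene, given to 2 decimals. A mouse genome is named in the methods, whereas the submitters' processing notes list hg19, BWA and HISAT2, and gene identifiers are those of human genes. The rule that gave tags to genes is not given in the sources used here.

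Numbers of tags were derived from the steps in the CPM. Of 14968 and 14908 values above 0, 99.96% and 99.98% lay within 0.005 CPM, the rounding, of a whole number of tags. These numbers were used for counting intervals and for TMM scaling, and no count model was fitted. A count of 3 tags was taken as the floor.

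The members and the 15 other lists were chosen with earlier results of these data known. By rule, the genes named from a list are the most abundant one and those with the 2 highest and 2 lowest log2 ratios. The ratios are ranked among genes whose mean CPM was 10 or more. For cell type lists the rule names the most abundant gene and those at 0. Further genes are named outside this rule. They include carriers, inhibitors and cholangiocyte markers whose interval included 0, SERPINA10 as a gene that another list holds, and genes marked as named after their values were seen. From these lists 2 genes were left out and are not reported here, so the list of repressors of AFP is incomplete and is given no counts. No gene outside the members was named for likeness of pattern. Newer symbols were matched by Ensembl identifier, and VTN was found under the symbol SEBOX. Near-identical sequence means at least 95% identity over at least 100 nt between the first 500 nt of a transcript and a transcript of another gene in GENCODE v29, on either strand (BLAST+ 2.17.0). Other folds, pseudocounts, filters and scalings were tried. The steps were tested on simulated data. Python 3.11.15 with numpy 2.4.6, pandas 2.3.3, scipy 1.17.1 and matplotlib 3.10.9 was used.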

Additional observations from a re-analysis of the deposited data

How the results depend on the processing

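No paired analysis was possible because there is only 1 library for each condition, and no library can be left out for the same reason. The planned TMM factors of edgeR were not run, since the deposited values are CPM. TMM scaling computed directly from the tags, and ratios without a pseudocount, were added after the data were seen.

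The number of members at least 1.5-fold lower was 1. It was 0 with a pseudocount of 5 CPM, which shrinks the ratio of TF, and 0 when a mean CPM of 10 was required, which leaves TF out. It was 0 after rescaling to a median log2 ratio of 0 and 0 with TMM scaling, which both raise the M2BPGi-treated library. By construction, the fold sets the count as well, with 4 members at the milder limit and 0 at 2-fold. The number at least 1.5-fold higher was 0 under each alternative run. The median log2 ratio of the members was between -0.34 and -0.25 under the alternatives. That of the summed CPM, -0.38, was -0.32 after rescaling to a median of 0, -0.33 with TMM scaling and -0.42 without AFP. Of 54 values of single members under an alternative, 48 moved by less than the counting error, 6 by more and 0 changed sign. A pseudocount cannot change a sign, so the last count bears on the scalings only. The 6 are AFP, SERPINA1 and AMBP under the scaling to a median of 0 and TMM scaling. Every comparison of the conditions is limited by the lack of replicates, and that of TF, TTR, RBP4 and SERPINA3 by the number of tags as well.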
